A study of Mus musculus with 9 samples.

Results

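The 48 genes described here encode the enzymes and transporters of glycolysis and the best known targets of the hypoxia response, and were found by gene name among the 49326 named genes of the deposited tables. By role they are 2 glucose transporters, 16 glycolytic enzymes, 4 genes of lactate production and export, 4 regulators of flux, 2 genes of glycogen synthesis, 4 genes for hypoxia-inducible factor (HIF) subunits and HIF hydroxylases, and 16 other HIF targets. The first 28 are called glycolysis genes below. All 48 passed the filter on low counts, and 47 of them had at least 100 counts in every library, so counting error is small for nearly all of them.

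Glycolysis splits glucose into pyruvate, and lactate dehydrogenase turns pyruvate into lactate, which leaves the cell with protons through monocarboxylate transporters. HIF is a transcription factor made of an oxygen-regulated alpha subunit and a constant beta subunit; in oxygen, EGLN hydroxylases mark the alpha subunit for destruction by the VHL ubiquitin ligase. When oxygen is short HIF binds hypoxia response elements and turns on most glycolytic genes together with genes of blood vessel growth, collagen modification and mitophagy, and mouse pluripotent stem cells are known for high glycolysis even in air.

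The libraries are polyA+ RNA-seq, taken at day 0 from embryonic stem cells of the mouse and later from embryoid bodies, the differentiating aggregates that they form in hanging drops (days 4 and 8). Hnrnpll-/- cells (KO; Hnrnpll encodes an RNA-binding protein) came as 2 lines, G6 and H8, with 1 library each at day 0, day 4 and day 8. Wild-type cells (WT) gave 1 library at each of these days, which makes 6 KO and 3 WT libraries in all. The stem cells of both genotypes were grown in 15% fetal bovine serum and 1000 U/ml leukemia inhibitory factor. Oxygen level and feeder cells are not given in the sources used here. In each pair of KO values below, line G6 comes before line H8. The labels do not say how the KO lines were made, nor whether libraries of different days were started from separate cultures, so p-values measure only the spread between these libraries. In tests of single days, KO courses and differences between days, that spread comes from the 2 KO lines alone. WT has 1 library per day and adds nothing to it.

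Libraries held 54202944 to 184890212 counts in named genes, and the 2 KO libraries of day 0 were the shallowest. Counts up to 40 fell on multiples of 4 for 43.5% and 42.6% of genes in these 2 libraries and for 30.6% to 33.2% in the other 7. Hnrnpll itself was at 54.9 and 24.5 TPM in KO against 77.1 TPM in WT at day 0. Hnrnpll at day 4 had 61.2 and 38.6 TPM in KO against 101 TPM in WT, and at day 8 56.5 and 43.5 TPM in KO against 112 TPM in WT, so its RNA was present in KO, below WT in each KO library, and did not pass the test (log2 fold change over all days -1.02, adjusted p = 0.0726). The Y-linked gene Eif2s3y was at 2.15 and 1.54 TPM in KO against 129 TPM in WT at day 0. At day 8 it was at 0 TPM in both KO libraries against 134 TPM in WT. The Y-linked genes Ddx3y and Uty were also at 0 TPM in both KO libraries at day 8, against 33.5 and 29.5 TPM in WT. The KO and WT cells thus also differ in these Y-linked genes, and genotype and line cannot be told apart. The naive stem cell markers fitted the tissue label at day 0, where the sum of 11 of them was 2170 and 3060 TPM in KO and 1200 TPM in WT. At day 8 the same sum was 1560 and 1520 TPM in KO against 286 TPM in WT, while 7 erythroid markers summed to 1.47 and 5.69 TPM in KO against 533 TPM in WT. Fibroblast and mesenchyme markers, 8 genes, summed to 119 and 67 TPM in KO against 173 TPM in WT at day 0. At day 4 their sum was 12.6 and 8.59 TPM in KO against 41.3 TPM in WT. The part of such cells in the differences at day 0 was not tested. In bulk RNA fewer cells of a type and less RNA per cell cannot be told apart.

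The hypoxia response element has a core that reads ACGTG or GCGTG on either strand, and the promoters of the genes that the results turn on show how these cores lie around the start site. The sequences are RefSeq promoter windows of build GRCm38.p6, 250 bases before to 50 after the annotated start, written 5′ to 3′ on the strand of the gene, with every core on either strand in capitals. Pfkp, Hk2, Aldoc and Gpi1 were higher in KO over all days, Pgk1 was higher at day 0, and Bnip3 and Adm are other HIF targets with their highest KO levels at day 4.
Pfkp (chr13:6648722-6649021, minus strand): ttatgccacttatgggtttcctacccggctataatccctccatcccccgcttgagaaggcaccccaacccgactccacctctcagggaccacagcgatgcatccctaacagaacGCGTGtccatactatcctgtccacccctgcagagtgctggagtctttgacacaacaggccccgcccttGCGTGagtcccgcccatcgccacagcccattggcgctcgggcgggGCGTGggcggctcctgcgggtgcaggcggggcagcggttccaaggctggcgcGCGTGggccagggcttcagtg
Hk2 (chr6:82774405-82774704, minus strand): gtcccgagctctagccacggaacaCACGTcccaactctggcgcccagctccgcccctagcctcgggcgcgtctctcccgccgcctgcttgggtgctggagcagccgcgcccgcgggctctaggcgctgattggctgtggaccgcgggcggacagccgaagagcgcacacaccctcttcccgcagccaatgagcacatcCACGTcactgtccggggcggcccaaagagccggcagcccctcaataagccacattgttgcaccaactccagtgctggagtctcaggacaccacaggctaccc
Aldoc (chr11:78322823-78323122, plus strand): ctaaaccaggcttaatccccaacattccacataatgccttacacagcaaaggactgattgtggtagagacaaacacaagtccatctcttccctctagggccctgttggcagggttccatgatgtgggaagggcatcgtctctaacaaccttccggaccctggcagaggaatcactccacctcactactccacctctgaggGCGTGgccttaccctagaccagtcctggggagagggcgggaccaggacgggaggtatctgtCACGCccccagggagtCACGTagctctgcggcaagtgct
Gpi1 (chr7:34230287-34230586, minus strand): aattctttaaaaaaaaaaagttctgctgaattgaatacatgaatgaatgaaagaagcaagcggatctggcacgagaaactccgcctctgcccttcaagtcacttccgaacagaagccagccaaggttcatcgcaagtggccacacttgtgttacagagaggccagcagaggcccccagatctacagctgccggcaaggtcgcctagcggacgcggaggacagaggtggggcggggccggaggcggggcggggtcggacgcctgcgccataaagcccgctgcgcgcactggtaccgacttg
Pgk1 (chrX:106186850-106187149, plus strand): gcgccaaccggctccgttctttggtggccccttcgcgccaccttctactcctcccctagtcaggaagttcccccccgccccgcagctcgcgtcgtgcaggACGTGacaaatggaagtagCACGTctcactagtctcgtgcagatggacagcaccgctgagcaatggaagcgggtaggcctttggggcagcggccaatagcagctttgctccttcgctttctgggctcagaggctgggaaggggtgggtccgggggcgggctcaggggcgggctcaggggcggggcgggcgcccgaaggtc
Bnip3 (chr7:138909457-138909756, minus strand): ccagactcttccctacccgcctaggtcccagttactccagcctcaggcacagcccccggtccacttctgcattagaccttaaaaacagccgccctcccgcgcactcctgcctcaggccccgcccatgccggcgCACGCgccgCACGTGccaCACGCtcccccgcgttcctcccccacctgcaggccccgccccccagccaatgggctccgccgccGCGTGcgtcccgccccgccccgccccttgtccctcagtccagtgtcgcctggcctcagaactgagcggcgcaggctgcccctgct
Adm (chr7:110627407-110627706, plus strand): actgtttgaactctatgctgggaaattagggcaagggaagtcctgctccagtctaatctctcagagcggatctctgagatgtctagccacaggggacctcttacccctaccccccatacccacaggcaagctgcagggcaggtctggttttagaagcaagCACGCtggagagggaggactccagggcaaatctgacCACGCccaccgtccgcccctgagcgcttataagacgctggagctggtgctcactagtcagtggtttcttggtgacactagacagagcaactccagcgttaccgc
The Pfkp window holds 4 cores and the Bnip3 window 5. Of these Bnip3 cores 2 overlap in an E-box, CACGTG, whose letters contain ACGTG on both strands. The Pgk1 cores begin 150 and 131 bases before the start, those of Hk2 226 and 52 bases before it, and those of Adm 90 and 54 bases before it. The windows of Gpi1 and Aldoa, which were also higher over all days, hold none of these letters. Some genes have several RefSeq windows, 3 for Aldoa and 2 for Aldoc, and 1 per gene was used. Cores in the other windows are therefore not covered. A window was found for 42 of the 48 members, and 32 of the 42 (76.2%) held at least 1 core, against 43.8% of all 32851 windows in the table. The members enter with 1 window each, whereas a gene can have several among the 32851. At least 2 cores were found in 57.1% of member windows and in 20.6% of all windows, and an E-box in 11.9% and 7.15%. By class a core was found in 10 of 12 windows of other HIF targets and in 19 of 27 windows of glycolysis genes. A match of letters is a description and not a binding site. Ndufa4l2, Ndrg1, Epas1, Bnip3l, Slc2a3 and Plod2 have no window in the table.

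Over all days, 6 of the 48 members were higher in KO than in WT and 0 were lower (edgeR quasi-likelihood test on counts with day as a covariate, adjusted p under 0.05 over the 24794 genes tested; a gene is said to have passed on this edgeR test unless another tool is named). Of all genes tested 0.984% passed, 0.387% higher and 0.597% lower, against 12.5% of the members. The 6 are the glycolytic enzymes Pfkp, Hk2, Gpi1, Aldoa and Aldoc, and the HIF target Ndufa4l2. Fold changes were positive for 42 of 48 members, with a median log2 fold change of 0.46 against -0.02 over all genes tested. Without adjustment, p was under 0.05 for 18 higher and 3 lower members (Slc16a1, Hif1a and Bnip3l), beside 19.7% of all genes in either direction. DESeq2 called 9 higher and 3 lower, with 13.4% of all genes called, and limma-voom 7 higher and 1 lower, with 3.57% of all genes called.

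Pfkp, the platelet-type subunit of phosphofructokinase, which commits sugar to glycolysis (chromosome 13, 6579768 to 6648777, minus strand), was at 414 and 330.1 TPM in KO against 131 TPM in WT at day 0. Pfkp at day 4 had 308 and 177 TPM in KO against 63.2 TPM in WT, and at day 8 206 and 168 TPM in KO against 77.2 TPM in WT (log2 fold change 1.59, SE 0.19, adjusted p = 0.0215). Hk2, the inducible hexokinase that traps glucose in the cell (chromosome 6, 82725025 to 82774454, minus strand), was at 273 and 199.6 TPM in KO against 104 TPM in WT at day 0. Hk2 at day 4 had 159.9 and 126 TPM in KO against 64.1 TPM in WT, and at day 8 75.9 and 60.9 TPM in KO against 42.05 TPM in WT (log2 fold change 1.04, SE 0.16, adjusted p = 0.0342). In both genes each KO line stood above WT at every day. A stretch of 748 exonic bases of Pfkp (5.58%) overlaps Pitrm1, at 75.5 to 131 TPM, on the other strand. Gpi1, which converts glucose 6-phosphate to fructose 6-phosphate (chromosome 7, 34201330 to 34230336, minus strand), was at 1020 and 799 TPM in KO against 312 TPM in WT at day 0. Gpi1 at day 4 had 1259 and 1042 TPM in KO against 526 TPM in WT, and at day 8 513 and 376 TPM in KO against 235 TPM in WT (log2 fold change 1.04, SE 0.15, adjusted p = 0.0266). Its WT level at day 4 lay above its KO levels of day 8, so days have to be compared with their own WT library. Aldoa, the main aldolase of most tissues, which splits fructose bisphosphate (chromosome 7, 126795234 to 126800751, minus strand), was at 1846 and 1524 TPM in KO against 943 TPM in WT at day 0. Aldoa at day 4 had 2430 and 1818 TPM in KO against 1236 TPM in WT, and at day 8 1074 and 917 TPM in KO against 626 TPM in WT (log2 fold change 0.77, SE 0.13, adjusted p = 0.0435). Aldoc, the brain-type aldolase (chromosome 11, 78322968 to 78327781, plus strand), was far less abundant, at 31.4 and 24.5 TPM in KO against 9.53 TPM in WT at day 0. Aldoc at day 4 had 39.6 and 25.8 TPM in KO against 10.6 TPM in WT, and at day 8 5.8 and 6.08 TPM in KO against 4.16 TPM in WT (log2 fold change 1.26, SE 0.23, adjusted p = 0.049). Neither aldolase overlapped between genotypes at any day, but at day 8 the gap for Aldoc was under 2 TPM.

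Ndufa4l2, a HIF target that lowers the activity of respiratory complex I (chromosome 10, 127514967 to 127517154, plus strand), had the largest fold change of the 48 members over all days. It was at 90.9 and 87.5 TPM in KO against 8.23 TPM in WT at day 0. Ndufa4l2 at day 4 had 117 and 62.3 TPM in KO against 14.2 TPM in WT, and at day 8 5.38 and 5.34 TPM in KO against 1.55 TPM in WT (log2 fold change 2.61, SE 0.34, adjusted p = 0.0237). The KO levels of day 8 lay below the WT level of day 0, and the genotypes did not overlap at any day; G6 and WT were higher at day 4 than at day 0, H8 was not. It is also the member with the fewest counts, 98 in its lowest library, and 32 of its exonic bases lie on the opposite strand of Shmt2, which was at 155 to 347 TPM, so some of its reads cannot be assigned where strand was not used. With the knockout line as a replicate block Aldoc missed the threshold over all days (adjusted p = 0.0661) and the other 5 passed, beside 0.617% of all genes. All 6 calls were lost without the library H8 day 0, without either KO library of day 4 or without H8 day 8, with either KO line alone, and without the day 0 libraries. Of all genes, 244 in the main fit, 20 passed without H8 day 0, 0 without either KO library of day 4 and 2 without H8 day 8. With either KO line alone 0 of all genes passed, and without the day 0 libraries 14. For the 6 members, 1 call was left without WT day 8 or without G6 day 0 (42 and 70 of all genes passed). Another 2 settings, without WT day 4 or without G6 day 8, left 2 calls (295 and 59 of all genes).

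**Figure D1:**
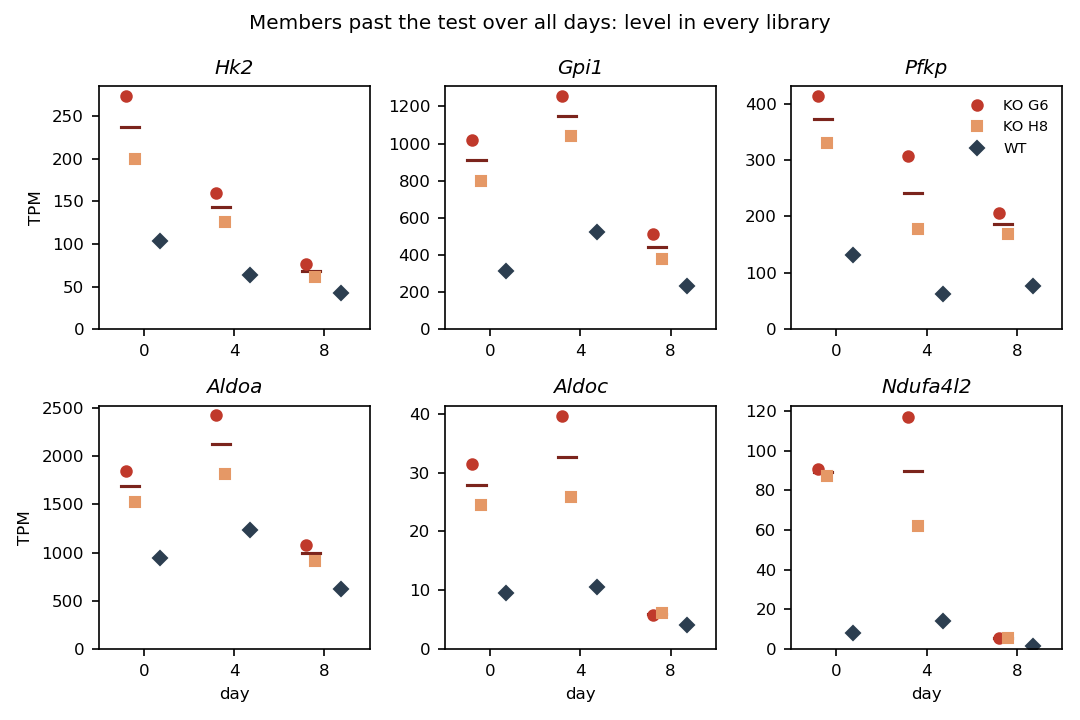
Level in TPM (vertical axis, linear and starting at 0) of the 6 members past the test over all days in every library, by day (horizontal axis). Circles are KO line G6, squares KO line H8, the short bar their mean, and diamonds WT; both KO lines lie above WT in each panel at each day.

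Both KO lines stood above WT at all 3 days, by TPM, for 12 of the 48 members, against 10.2% of all genes with a value. These 12 were 8 of 16 glycolytic enzymes (Hk2, Gpi1, Pfkp, Pfkl, Aldoa, Aldoc, Gapdh and Pkm), Ldhb, Slc16a3, Gys1, and 1 of 16 other HIF targets, Ndufa4l2. Summed over the 16 enzymes the level was 13120 and 9650 TPM in KO against 6752 TPM in WT at day 0, 14400 and 12740 TPM in KO against 9644 TPM in WT at day 4, and 6046 and 5536 TPM in KO against 4327 TPM in WT at day 8. For the 16 other HIF targets it was 1351 and 1372 TPM in KO against 922 TPM in WT at day 0, 1895 and 1778 TPM in KO against 748 TPM in WT at day 4, and 717 and 759.9 TPM in KO against 1020 TPM in WT at day 8. The enzyme sum was thus above WT in both KO lines at every day, and the sum of the other HIF targets at days 0 and 4 only. Processed pseudogenes are not part of these sums. The difference between the classes was not tested, since the members were chosen with results of these data known.

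**Figure D2:**
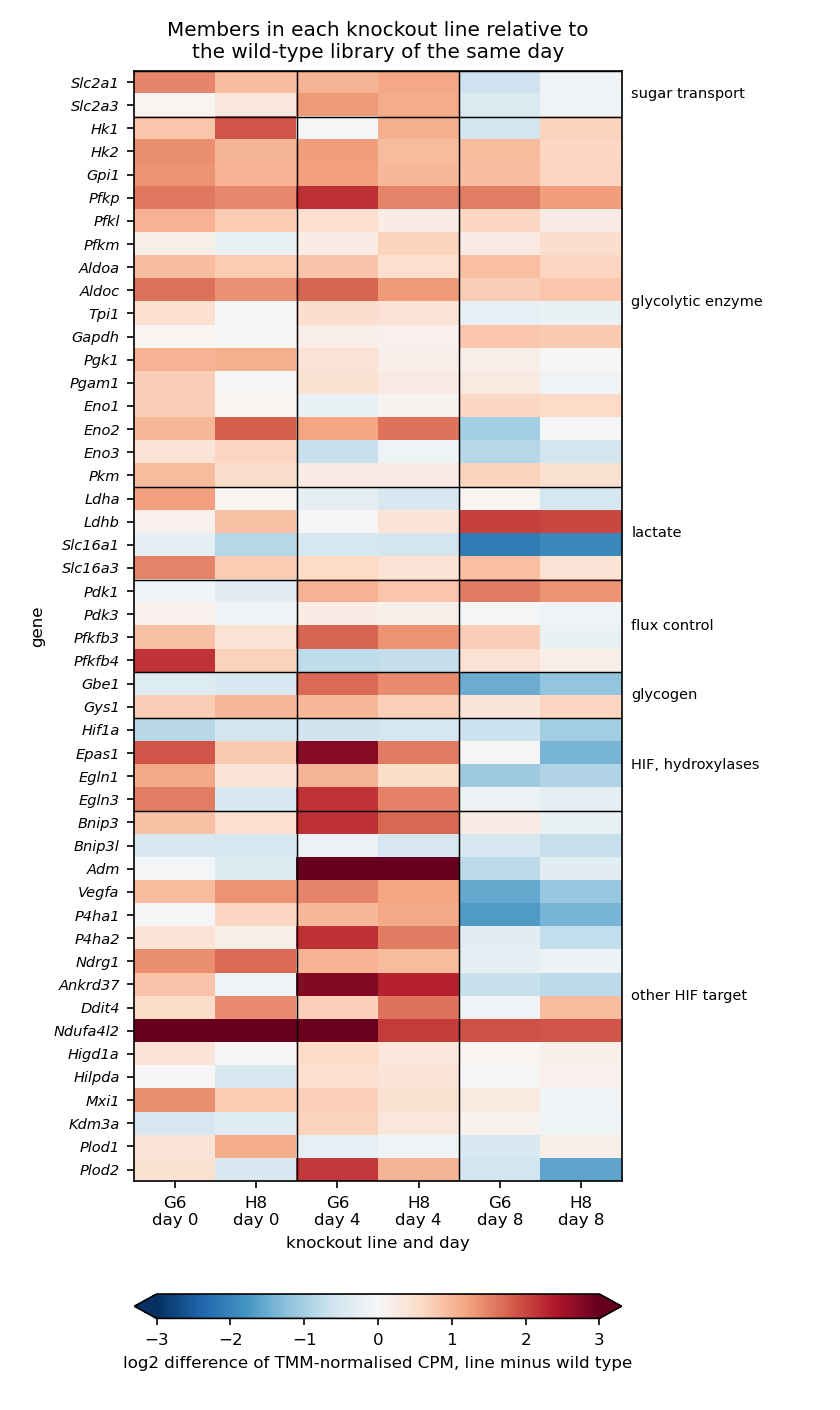
Log2 difference of TMM-normalised CPM between each KO line and the WT library of the same day (colour; red is higher in KO, and the scale ends at 3 in either direction) for the 48 members (rows, by role) in lines G6 and H8 at each day (columns). Red runs through most enzyme rows at all days, and for other HIF targets it is deepest at day 4 and gives way to blue at day 8.

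At day 0, 5 members were higher in KO and 0 were lower (edgeR, group-mean model), against 5.43% of all genes tested in either direction with 1.11% higher and 4.33% lower. Of the 16 enzymes, 16 had a positive fold change, with a median log2 fold change of 0.88, against 0.39 for the other HIF targets and -0.02 for all genes tested. The 3 enzymes that passed were Gpi1 (1.21, adjusted p = 0.0393), Aldoc (1.52, adjusted p = 0.046) and Pgk1. Pgk1, which makes the first ATP of glycolysis (chromosome X, 106187100 to 106203699, plus strand), was at 1541 and 1469 TPM in KO against 731 TPM in WT (log2 fold change 1.05, SE 0.18, adjusted p = 0.0334). It was at 2008 and 1577 TPM in KO against 1366 TPM in WT at day 4 and at 549.7 and 493 TPM in KO against 535 TPM in WT at day 8, where WT lay between the KO lines. Processed pseudogenes of Pgk1 held 9.9% to 32.7% of the summed TPM of gene and pseudogenes, and with them added the log2 difference of the means at day 0 was 0.70 in place of 1.04.

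The other 2 members that passed at day 0 were HIF targets. Ndrg1, a stress-induced gene that is a common readout of hypoxia (chromosome 15, 66929318 to 66969640, minus strand), was at 53.01 and 63.7 TPM in KO against 20.5 TPM in WT (log2 fold change 1.56, SE 0.22, adjusted p = 0.0175). Ndufa4l2 had a log2 fold change of 3.44 (SE 0.43, adjusted p = 0.013) and passed under every alternative tried. None of these left out the lone WT library of day 0, without which the comparison cannot be made. Ndrg1 was at 72.7 and 62.9 TPM in KO against 30.99 TPM in WT at day 4 and at 21.5 and 23.6 TPM in KO against 28.03 TPM in WT at day 8, where both KO lines were below WT. An unadjusted p under 0.05 was found for 17 higher and 2 lower members, beside 24.4% of all genes. DESeq2 called 16 higher and 0 lower (all genes 14.9%), and limma-voom 5 higher and 0 lower (all genes 3.82%). With the replicate block 14 members passed at day 0, all higher, adding Hk1, Hk2, Pfkp, Pfkl, Aldoa, Slc16a3, Epas1, Ddit4 and Mxi1, beside 6.3% of all genes. Leaving out a KO library of day 4 or day 8 left 1 KO library at that day. Of the 5 calls only that of Ndufa4l2 was then kept, and that of Ndrg1 without H8 day 8. Calls over all genes fell as well.

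At day 4 no member passed the edgeR test, nor did nearly any gene (0.00807% of those tested), although the members' fold changes were about as large as at day 0. Both KO lines stood above WT for 40 of 48 members by TPM, against 46.1% of all genes, and the median log2 fold change was 0.75 at day 4 and 0.73 at day 0, against 0.07 at day 4 over all genes tested. An unadjusted p under 0.05 was found for 23 higher members and 1 lower, beside 13.5% of all genes. DESeq2 called 16 higher and 0 lower (all genes 5.23%), and limma-voom 0 (all genes 0.226%). The order of the classes was turned round relative to day 0, with a median log2 fold change of 1.15 for the 16 other HIF targets and 0.47 for the 16 enzymes. Primitive streak markers, which should peak near this day, summed to 74.2 and 178 TPM in KO against 1940 TPM in WT over 10 genes, and their part in these differences was not tested.

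At day 8, 5 members were higher in KO and 4 lower, 18.8% of the 48 against 9.87% of all genes tested (5.01% higher and 4.86% lower). The 5 higher were Pfkp, Gapdh, Ldhb, Pdk1 and Ndufa4l2, of which 4 are glycolysis genes. The 4 lower were Slc16a1, Gbe1, Vegfa and P4ha1, of which Slc16a1 and Gbe1 are also glycolysis genes. The median log2 fold change was 0.50 for the 16 enzymes (13 positive), -0.15 for the 16 other HIF targets (6 positive) and 0.08 for all genes tested. With counts scaled by library total alone, 8 of the 16 other HIF targets were positive and their median was -0.06, so the direction of that class at day 8 depends on the scaling for several of its genes. Leaving out a KO library of day 4 or day 8 left 1 KO library at that day. The member calls at day 8 were then lost, except that of Pdk1 without H8 day 8. Most calls over all genes were lost as well. With the replicate block 13 members passed at day 8, 8 higher and 5 lower, adding Hk2 (adjusted p = 0.0321), Gpi1 (0.0304), Aldoa (0.0326) and Plod2 (0.0219, lower), beside 12.5% of all genes. DESeq2 called 7 higher and 6 lower (all genes 21.7%), and limma-voom 4 higher and 5 lower (all genes 15.2%), so by these tools the members' shares at day 8 lay nearer to those of all genes.

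**Figure D3:**
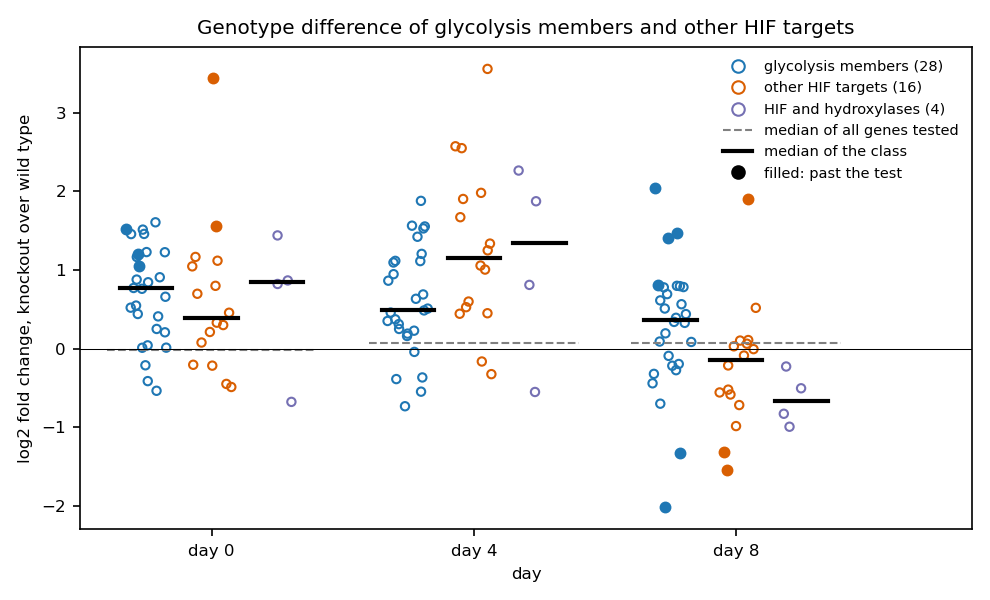
Log2 fold change of KO over WT from edgeR (vertical axis) for each member at day 0, day 4 and day 8 (horizontal axis), by class, with filled points for members past the test, a black bar at the class median and a dashed line at the median of all genes tested. The median of the other HIF targets is 0.39 at day 0, 1.15 at day 4 and -0.15 at day 8, while that of the 28 glycolysis genes is 0.77, 0.50 and 0.36.

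Gapdh, which oxidises glyceraldehyde 3-phosphate and yields NADH, was at 451 and 409.5 TPM in KO against 388 TPM in WT at day 0. Gapdh at day 4 had 669 and 621 TPM in KO against 539 TPM in WT, and at day 8 406 and 401 TPM in KO against 254 TPM in WT. It passed the test between genotypes at day 8 (log2 fold change 0.81, SE 0.15, adjusted p = 0.0301). Its level is uncertain, because 176 processed pseudogenes that are at least 90% identical held 88.5% to 91.0% of the summed TPM of gene and pseudogenes; with them added the log2 difference of the means at day 8 was 0.69 against 0.67 for the gene alone. Pfkp at day 8 had a log2 fold change of 1.40 (adjusted p = 0.0482). Pfkp also made up more of the summed TPM of the 3 phosphofructokinase subunits in each KO library than in WT, at 59.9% and 61.0% in KO against 48% in WT at day 0, 46.6% and 37.2% in KO against 21.2% in WT at day 4, and 61.1% and 58.6% in KO against 42.9% in WT at day 8. Pfkl, the liver-type subunit, was at 244 and 187 TPM in KO against 114 TPM in WT at day 0. Pfkl at day 4 had 305 and 236 TPM in KO against 197 TPM in WT, and at day 8 93.6 and 71.7 TPM in KO against 67.4 TPM in WT. Pfkm, the muscle-type subunit, was at 33.1 and 23.9 TPM in KO against 28.3 TPM in WT at day 0. Pfkm at day 4 had 47.6 and 62.1 TPM in KO against 38.02 TPM in WT, and at day 8 38 and 47.3 TPM in KO against 35.4 TPM in WT, and at day 0 its WT value lay between the KO lines. Neither passed between genotypes by edgeR without the block, and Pfkl was higher at day 0 by DESeq2 (adjusted p = 0.0223) and with the replicate block (0.0339).

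Hk1, the constitutive hexokinase, was at 29.7 and 67.5 TPM in KO against 16.4 TPM in WT at day 0. Hk1 at day 4 had 10.4 and 21.9 TPM in KO against 10.1 TPM in WT, and at day 8 12.6 and 31.2 TPM in KO against 20.04 TPM in WT. H8 had over 2 times the level of G6 at each day. The 3 enolases, which make phosphoenolpyruvate, differed widely in level, and Eno1 held 92.8% to 98.5% of their summed TPM in every library. Eno1 was at 2101 and 1231 TPM in KO against 1208 TPM in WT at day 0. Eno1 at day 4 had 2178 and 2516 TPM in KO against 2303 TPM in WT, and at day 8 991 and 986 TPM in KO against 694 TPM in WT. Eno2, the neuronal form, was at 8.44 and 13.5 TPM in KO against 4.45 TPM in WT at day 0. Eno2 at day 4 had 18.5 and 23.6 TPM in KO against 7.75 TPM in WT, and at day 8 6.96 and 13.2 TPM in KO against 14.1 TPM in WT, above WT in both KO lines at days 0 and 4 and below WT in both at day 8. Eno3, the muscle form, was at 24.3 and 25.4 TPM in KO against 16.7 TPM in WT at day 0. Eno3 at day 4 had 18.3 and 26.4 TPM in KO against 27.4 TPM in WT, and at day 8 19.6 and 26.1 TPM in KO against 39.5 TPM in WT. Of the hexokinases and enolases only Hk2 passed between genotypes by edgeR without the block; at day 0 Hk1 was higher with the replicate block (adjusted p = 0.0215) and Eno2 by DESeq2 (0.0471). Of the enzymes not yet given, Pkm, which makes pyruvate and ATP, ran from 938 to 3342 TPM, Tpi1 from 265.5 to 738 TPM and Pgam1 from 347.5 to 1150 TPM, and none of the 3 passed by edgeR. DESeq2 called Pkm higher over all days (adjusted p = 0.0483) and at day 0 (0.0374). Processed pseudogenes held 25.8% to 32.3% of the summed TPM of gene and pseudogenes for Eno1, and 11.5% to 33.4% for Pgam1. With them added the log2 difference of the means at day 0 was 0.56 in place of 0.46 for Eno1. For Pgam1 it was 0.13 in place of 0.41.

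Both glucose transporters lay above WT in both KO lines at days 0 and 4 by TPM and below WT in both at day 8, and neither passed by edgeR. DESeq2 called Slc2a1 higher at day 0 (adjusted p = 0.00588) and Slc2a3 higher at day 4 (0.00042). Slc2a1, which encodes GLUT1, was at 1084 and 697 TPM in KO against 381 TPM in WT at day 0. Slc2a1 at day 4 had 759.9 and 812 TPM in KO against 354 TPM in WT, and at day 8 342 and 447 TPM in KO against 509 TPM in WT. Slc2a3, which encodes the high-affinity GLUT3, was at 707 and 768 TPM in KO against 663 TPM in WT at day 0. Slc2a3 at day 4 had 1134 and 855 TPM in KO against 381 TPM in WT, and at day 8 612 and 747 TPM in KO against 883 TPM in WT. The edgeR log2 fold changes of Slc2a3 were 0.21, 1.21 and -0.28 at day 0, day 4 and day 8 (adjusted p = 0.563, 0.137 and 0.389). By edgeR those of Slc2a1 were 1.23, 1.09 and -0.32 (adjusted p = 0.0868, 0.258 and 0.52).

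Among the 4 lactate genes 1 was higher and 1 lower in KO at day 8. Ldhb, the heart-type lactate dehydrogenase subunit that favours the turn of lactate to pyruvate (chromosome 6, 142490249 to 142507957, minus strand), was at 188 and 299 TPM in KO against 169 TPM in WT at day 0. Ldhb at day 4 had 373 and 472 TPM in KO against 343 TPM in WT, and at day 8 421 and 411 TPM in KO against 112 TPM in WT (log2 fold change 2.04, SE 0.36, adjusted p = 0.0292 at day 8). Ldha, the muscle-type subunit that favours lactate production, was at 2053 and 843 TPM in KO against 818 TPM in WT at day 0. Ldha at day 4 had 2221 and 1885 TPM in KO against 2554 TPM in WT, and at day 8 600 and 409 TPM in KO against 624 TPM in WT. At day 0 the 2 KO lines differed by over 2 times in Ldha, and the H8 value was close to WT. Ldhb therefore made up 41.3% and 50.1% of the summed TPM of both subunits in KO against 15.3% in WT at day 8, and 8.4% and 26.2% in KO against 17.1% in WT at day 0. Slc16a1, the monocarboxylate transporter MCT1 (chromosome 3, 104638668 to 104658462, plus strand), was at 65.4 and 41.5 TPM in KO against 77.5 TPM in WT at day 0. Slc16a1 at day 4 had 90.2 and 84.5 TPM in KO against 121 TPM in WT, and at day 8 85.9 and 96.9 TPM in KO against 403 TPM in WT (log2 fold change -2.02, SE 0.24, adjusted p = 0.018 at day 8). Its high WT value at day 8 stands apart from the other 8 libraries, which lay at 41.5 to 121 TPM. Slc16a3, the lactate exporter MCT4, was at 140.4 and 79.03 TPM in KO against 48.5 TPM in WT at day 0. Slc16a3 at day 4 had 253 and 202 TPM in KO against 140 TPM in WT, and at day 8 65.9 and 47.98 TPM in KO against 37.8 TPM in WT. Slc16a3 thus made up 68.2% and 65.6% of the pair in KO against 38.5% in WT at day 0, and 43.4% and 33.1% in KO against 8.57% in WT at day 8. Markers of several cell types also differed between genotypes at day 8. Those of yolk sac and endoderm summed to 55.6 and 64.1 TPM in KO against 365 TPM in WT over 8 genes. Cardiomyocyte markers summed to 11.9 and 18.2 TPM in KO against 305 TPM in WT over 10 genes. The part of such cells in the levels of the lactate genes was not tested.

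**Figure D4:**
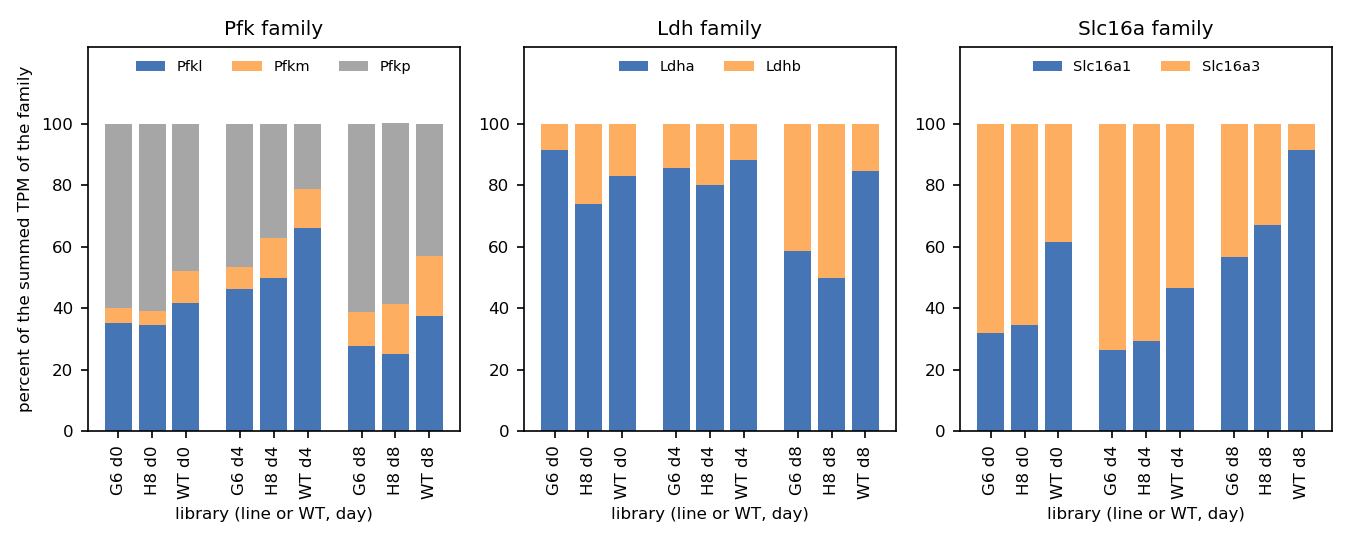
Share of the summed TPM (vertical axis, percent) held by each phosphofructokinase, lactate dehydrogenase and monocarboxylate transporter gene in each library (horizontal axis; for each day G6, H8, then WT). At day 8 Ldhb makes up 41.3% and 50.1% in KO and 15.3% in WT, and Slc16a1 56.6% and 66.9% in KO and 91.4% in WT.

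Among regulators of flux, Pdk1, a kinase that shuts off pyruvate dehydrogenase and so keeps pyruvate from the mitochondria (chromosome 2, 71873224 to 71903858, plus strand), was at 145 and 112 TPM in KO against 158 TPM in WT at day 0. Pdk1 at day 4 had 214 and 176 TPM in KO against 97.5 TPM in WT, and at day 8 118 and 86.3 TPM in KO against 35.3 TPM in WT. KO values at day 0 lay below WT and those of days 4 and 8 above it, and the gene passed at day 8 (log2 fold change 1.47, SE 0.21, adjusted p = 0.0229). Pdk3, its X-linked relative, was at 38.7 and 30.8 TPM in KO against 34.04 TPM in WT at day 0. Pdk3 at day 4 had 45.9 and 42.01 TPM in KO against 36.2 TPM in WT, and at day 8 28.1 and 27.2 TPM in KO against 32.5 TPM in WT. Pdk1 made up 80.8% and 76.0% of the summed TPM of the pair in KO against 52.1% in WT at day 8. Pfkfb3, which makes a strong activator of phosphofructokinase, was at 28.96 and 15.3 TPM in KO against 13.9 TPM in WT at day 0. Pfkfb3 at day 4 had 55.7 and 40.8 TPM in KO against 15.2 TPM in WT, and at day 8 25.5 and 19.9 TPM in KO against 22.3 TPM in WT. Pfkfb4, a related kinase, was at 1.43 to 3.85 TPM over all libraries, the lowest level of the 48 members by its maximum. None of Pdk3, Pfkfb3 and Pfkfb4 passed between genotypes by edgeR, and DESeq2 called Pfkfb3 higher at day 4 (adjusted p = 0.028).

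Gbe1, the glycogen branching enzyme and a HIF target (chromosome 16, 70313949 to 70569716, plus strand), went through a peak in KO that WT did not show. It was at 6.99 and 5.77 TPM in KO against 8.22 TPM in WT at day 0. Gbe1 at day 4 had 33.1 and 25.8 TPM in KO against 9.63 TPM in WT, and at day 8 3.42 and 4.18 TPM in KO against 10.2 TPM in WT. KO values lay below WT at day 0, above it at day 4 and below it at day 8, and the last of these passed by edgeR (log2 fold change -1.33, SE 0.25, adjusted p = 0.0309), while DESeq2 also called day 4 (adjusted p = 1.36e-05). Gys1, the glycogen synthase of most tissues, was at 59.9 and 64.5 TPM in KO against 33.6 TPM in WT at day 0. Gys1 at day 4 had 57.2 and 44.5 TPM in KO against 25.7 TPM in WT, and at day 8 38.99 and 45.6 TPM in KO against 31.2 TPM in WT, with both KO lines above WT at every day (over all days log2 fold change 0.75, SE 0.15, adjusted p = 0.0604 by edgeR). DESeq2 and limma-voom called it higher over all days (adjusted p = 0.000837 and 0.0385), and DESeq2 also at day 0 (0.0137). A stretch of 310 exonic bases of Gys1 overlaps Ruvbl2, at 116 to 265 TPM, on the other strand.

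None of the 4 genes for HIF subunits and hydroxylases passed between genotypes by edgeR without the block, with an unadjusted p under 0.05 for 1 over all days, 1 at day 0, 2 at day 4 and 2 at day 8, where 29.7% of all genes had one. DESeq2 called 1 of the 4 over all days (13.4% of all genes), 1 at day 4 (5.23%) and 2 at day 8 (21.7%). Hif1a was the 1 gene of the 4 that limma-voom called, over all days (3.57% of all genes) and at day 8 (15.2%). Hif1a, the oxygen-regulated alpha subunit, was at 60.1 and 68.8 TPM in KO against 110.1 TPM in WT at day 0. Hif1a at day 4 had 69.3 and 65.5 TPM in KO against 87.4 TPM in WT, and at day 8 95.6 and 67.5 TPM in KO against 152 TPM in WT, below WT in both KO lines at every day (over all days log2 fold change -0.69, SE 0.13, adjusted p = 0.0519). Epas1, which encodes HIF-2 alpha, was at 32.7 and 14.4 TPM in KO against 8.61 TPM in WT at day 0. Epas1 at day 4 had 8.48 and 3.61 TPM in KO against 1.18 TPM in WT, and at day 8 34.5 and 13 TPM in KO against 36.8 TPM in WT. Its 2 KO lines differed by over 2 times at each day. It did not pass between genotypes by edgeR without the block, and was higher at day 0 with the replicate block (adjusted p = 0.0286) and at day 4 by DESeq2 (0.0368). Egln1, the main HIF hydroxylase, was at 45.2 and 25.4 TPM in KO against 19.9 TPM in WT at day 0. Egln1 at day 4 had 72.3 and 49.4 TPM in KO against 32.8 TPM in WT, and at day 8 12.5 and 14.2 TPM in KO against 28.9 TPM in WT. Egln3, a hydroxylase gene that HIF itself induces, was at 81.3 and 19.1 TPM in KO against 27.1 TPM in WT at day 0. Egln3 at day 4 had 117 and 70.8 TPM in KO against 24.1 TPM in WT, and at day 8 17.6 and 16.1 TPM in KO against 21.5 TPM in WT. Both hydroxylase genes were above WT in both KO lines at day 4 and below WT in both at day 8. RNA levels do not show how much HIF protein was present.

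Among the 16 other HIF targets, both KO lines stood above WT by TPM for 9 at day 0, 14 at day 4 and 1 at day 8, and below WT for 4, 2 and 11. Over all genes the share above was 32.9%, 46.1% and 40.1%, and the share below 40.2%, 31.5% and 44.4%. On TMM-scaled CPM (counts relative to the scaled library total) the tally at day 8 was 3 above WT (Higd1a, Hilpda and Ndufa4l2) and 8 below, with Higd1a and Hilpda below WT by TPM, and at day 0 it was 9 above and 3 below. Adm, which encodes the vessel-widening peptide adrenomedullin (chromosome 7, 110627661 to 110629820, plus strand), had the largest fold change of any member at day 4. It was at 4.8 and 3.48 TPM in KO against 5.13 TPM in WT at day 0. Adm at day 4 had 35.1 and 22.2 TPM in KO against 2.46 TPM in WT, and at day 8 1.29 and 1.85 TPM in KO against 2.5 TPM in WT. Both KO values of day 4 lay above all 7 other libraries (day 4 log2 fold change 3.56, SE 0.49, adjusted p = 0.12). Bnip3, a mitophagy receptor (chromosome 7, 138890836 to 138909519, minus strand), was at 286 and 202 TPM in KO against 152 TPM in WT at day 0. Bnip3 at day 4 had 428 and 296 TPM in KO against 84.1 TPM in WT, and at day 8 85.1 and 62.9 TPM in KO against 76.98 TPM in WT (day 4 log2 fold change 1.98, SE 0.34, adjusted p = 0.136). P4ha2, a collagen prolyl hydroxylase subunit, was at 46.5 and 34.2 TPM in KO against 33.9 TPM in WT at day 0. P4ha2 at day 4 had 80.1 and 62.7 TPM in KO against 20.8 TPM in WT, and at day 8 44.8 and 34.8 TPM in KO against 46.8 TPM in WT (day 4 log2 fold change 1.90, SE 0.36, adjusted p = 0.143). Ankrd37, a small ankyrin repeat gene induced by HIF, had a log2 fold change of 2.55 at day 4 (adjusted p = 0.167). By DESeq2 Adm, Bnip3, P4ha2, Ankrd37, Ndufa4l2, Ndrg1 and Vegfa were higher at day 4, with adjusted p of 3.41e-12 for Adm and 1.26e-05 for Bnip3, while edgeR and limma-voom called none of them.

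Vegfa and P4ha1 were on opposite sides of WT at different days. Vegfa, the main growth factor of blood vessels (chromosome 17, 46016993 to 46032369, minus strand), was at 107 and 123 TPM in KO against 44.99 TPM in WT at day 0. Vegfa at day 4 had 76.7 and 64.6 TPM in KO against 25.9 TPM in WT, and at day 8 57.7 and 86.9 TPM in KO against 164 TPM in WT (day 8 log2 fold change -1.32, SE 0.26, adjusted p = 0.035). P4ha1, the main collagen prolyl hydroxylase subunit (chromosome 10, 59323296 to 59373304, plus strand), was at 40.97 and 58.95 TPM in KO against 37.7 TPM in WT at day 0. P4ha1 at day 4 had 44.7 and 48.96 TPM in KO against 20.9 TPM in WT, and at day 8 21.01 and 25.8 TPM in KO against 71.99 TPM in WT (day 8 log2 fold change -1.54, SE 0.30, adjusted p = 0.0335). By TPM the KO lines were above WT at days 0 and 4 and below WT at day 8 for both genes, and WT had its highest value at day 8. On TMM-scaled CPM, P4ha1 in G6 at day 0 lay just below WT, with a log2 difference of -0.059. Plod2, a collagen lysyl hydroxylase, was at 138 and 62.3 TPM in KO against 88.9 TPM in WT at day 0. Plod2 at day 4 had 198 and 90.3 TPM in KO against 40.7 TPM in WT, and at day 8 98.9 and 50.3 TPM in KO against 161 TPM in WT. Plod1, its relative, was at 30.5 and 46.7 TPM in KO against 21.3 TPM in WT at day 0. Plod1 at day 4 had 14.3 and 15.3 TPM in KO against 15.5 TPM in WT, and at day 8 19.6 and 31.8 TPM in KO against 28.7 TPM in WT. Fibroblast and mesenchyme markers, which include collagen-making cells, summed to 21.4 and 53.3 TPM in KO against 905 TPM in WT at day 8 over 8 genes, with Lum at 0 in G6, and endothelial markers to 64.6 and 60.1 TPM in KO against 206 TPM in WT over 6 genes, with Emcn at 0 in both KO lines. Their part in the lower Vegfa and P4ha1 levels was not tested.

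The remaining HIF targets did not pass between genotypes by edgeR without the block. Ddit4 (adjusted p = 0.0316) and Mxi1 (0.0491) were higher at day 0 with the replicate block. DESeq2 called Mxi1 higher at day 0 (0.0205) and Bnip3l lower over all days (0.0135). Ddit4, an inhibitor of the growth kinase mTORC1, ran from 92.1 to 739 TPM, with H8 above G6 at each day. Bnip3l, another mitophagy receptor, ran from 72.1 to 127 TPM and was below WT in both KO lines at every day (over all days log2 fold change -0.47, SE 0.12, adjusted p = 0.0987), with 16.4% to 25.8% of the summed TPM in its processed pseudogenes. Higd1a, Hilpda, Mxi1 and Kdm3a, which act in respiration, lipid storage, transcription and histone demethylation, had log2 fold changes between genotypes of -0.45 to 1.12 at single days.

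The difference between genotypes at day 8 minus that at day 0 was tested directly. It was positive for 1 member and negative for 2, 6.25% of members against 4.7% of all genes tested (3.75% higher and 0.948% lower). Pdk1 had a difference of 1.68 on the log2 scale (SE 0.28, edgeR adjusted p = 0.0356), Vegfa of -2.49 (SE 0.39, adjusted p = 0.031) and Ndrg1 of -1.77 (SE 0.29, adjusted p = 0.0329). The median over members was -0.50 against 0.11 over all genes, with -0.42 for the 16 enzymes and -0.85 for the 16 other HIF targets. With the replicate block 6 members passed, adding Hk1, Epas1 and P4ha1, all negative, beside 5.48% of all genes. Leaving out a KO library left 1 KO library at its day. Without any 1 of the KO libraries of days 4 and 8 no gene passed, member or not. Without either KO library of day 0 more members passed, and more genes in all. Over all alternatives the difference was 1.56 to 1.82 for Pdk1, -2.68 to -2.26 for Vegfa and -1.93 to -1.60 for Ndrg1. The same test of day 4 against day 0 and of day 8 against day 4, added after seeing the data, called 0 members by edgeR, against 0.504% of all genes (0.456% higher and 0.0484% lower) and 0.0%. At an unadjusted p under 0.05 there were 8 higher and 2 lower members for day 4 against day 0 (all genes 17.2%), and 2 higher and 15 lower for day 8 against day 4 (all genes 16.3%). For day 8 against day 4 DESeq2 called 1 higher and 12 lower (all genes 6.36%). For day 8 against day 4 the difference of Adm was -4.12 (adjusted p = 0.12) and that of Gbe1 -2.90 (adjusted p = 0.115).

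Within the KO lines the members changed with days. From day 0 to day 4, 5 rose and 1 fell, 12.5% of members against 14.7% of all genes tested (9.56% higher and 5.16% lower), a share near the background. Gbe1 (log2 fold change 2.28, SE 0.22, adjusted p = 0.00337), Adm (2.74, adjusted p = 0.0075) and Hilpda, which holds back lipid breakdown (1.16, adjusted p = 0.0282), were among the risers, as were Gapdh (0.69, adjusted p = 0.0165) and Pfkm (0.95, adjusted p = 0.0442). Plod1 fell (log2 fold change -1.36, adjusted p = 0.0432). With the replicate block 14 members passed, beside 15.3% of all genes, among them Epas1 and Hk1 with log2 fold changes of -1.98 and -1.50, while Pfkm missed the threshold (adjusted p = 0.0557). Leaving out a KO library left 1 KO library at its day. Fewer members passed without any 1 of the KO libraries of days 4 and 8, and fewer genes in all. Without G6 day 0 more members passed, and more genes in all.

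From day 4 to day 8, 8 members fell in KO and 0 rose, 16.7% of members against 0.311% of all genes tested (0.165% higher and 0.145% lower). The 8 were the enzymes Pfkl, Aldoc and Pgk1, the glycogen gene Gbe1, and the HIF targets Bnip3, Adm, Ndrg1 and Ndufa4l2. Adm had the largest fall (log2 fold change -4.14, SE 0.38, adjusted p = 0.0318), followed by Ndufa4l2 (-4.04, adjusted p = 0.0295), Gbe1 (-2.98, adjusted p = 0.0295), Aldoc (-2.51, adjusted p = 0.0357) and Bnip3 (-2.28, adjusted p = 0.0422). Fold changes were negative for 40 of 48 members, with a median of -1.04 against 0.0063 over all genes. An unadjusted p under 0.05 was found for 1 rising member, Epas1, and for 30 falling ones, beside 13.2% of all genes. DESeq2 called 1 rising and 28 falling (all genes 6.34%), and limma-voom 0 rising and 18 falling (all genes 1.65%). With the replicate block 16 passed, of which Epas1 alone rose (log2 fold change 1.95), beside 0.605% of all genes. No member passed without any 1 of the 4 KO libraries of days 4 and 8, and nearly no other gene did. These fits had 1 KO library at the day concerned. Without either KO library of day 0 more members passed, and more genes in all.

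The WT course rests on 1 library per day and has no test. On log2(TPM + 1), the median day 4 minus day 0 difference of the 16 other HIF targets was 0.45 in G6 and 0.34 in H8 against -0.56 in WT, and the median day 8 minus day 4 difference was -1.02 in G6 and -0.87 in H8 against 0.65 in WT. The medians of these targets thus had opposite signs in KO and WT over both steps, with 13 of 16 and 9 of 16 positive in G6 and H8 from day 0 to day 4 and 5 of 16 in WT, and 14 of 16 and 12 of 16 negative in G6 and H8 from day 4 to day 8 and 5 of 16 in WT. The 16 enzymes had median differences from day 4 to day 8 of -1.16 in G6 and -1.05 in H8 against -0.79 in WT, with 14 and 15 of 16 negative in G6 and H8 and 12 of 16 in WT. Eno2 and Pfkp were negative in both KO lines and positive in WT. The glucose transporters had differences from day 4 to day 8 with a median of -1.02 in G6 and -0.53 in H8 against 0.87 in WT.

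**Figure D5:**
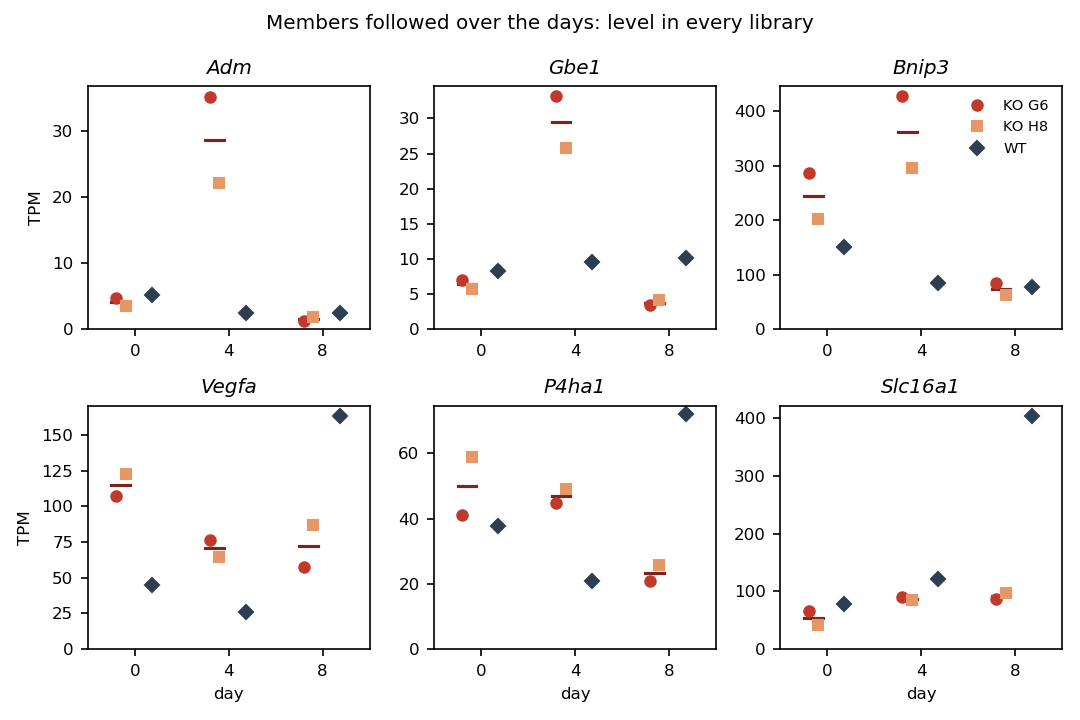
Level in TPM (vertical axis, linear and starting at 0) of 6 members over days 0, 4 and 8 (horizontal axis) in KO line G6 (circles), KO line H8 (squares), with a short bar at their mean, and WT (diamonds). Adm, Gbe1 and Bnip3 peak at day 4 in both KO lines, and Vegfa, P4ha1 and Slc16a1 have their highest WT value at day 8.

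Between the 2 KO lines no member passed the test over the 3 days (H8 over G6, edgeR with day as covariate; 0.00403% of all genes passed). An unadjusted p under 0.05 was found for 5 members higher in H8 and 15 higher in G6, beside 8.76% of all genes. DESeq2 called 3 higher and 4 lower in H8 (all genes 3.25%), and limma-voom 0 (all genes 0.0484%). By TPM 6 members were higher in H8 at all 3 days (Hk1, Eno2, Eno3, P4ha1, Ddit4 and Plod1) and 23 were higher in G6, against 14.1% and 22% of all genes. The widest steady gaps were those of Hk1 (log2 fold change 1.15, adjusted p = 0.0967), Epas1 (-1.22, adjusted p = 0.116), Plod2 (-1.001, adjusted p = 0.116) and Ddit4 (0.95, adjusted p = 0.116). By DESeq2 these 4 passed, with adjusted p of 4e-13, 3.37e-11, 1.07e-10 and 2.11e-09. Without G6 day 0 or H8 day 0 the edgeR test called 2 and 4 members, beside 42 and 53 of all genes.

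Other genes of these pathways were counted in 4 further lists. Among 44 further HIF pathway and target genes, 1 was higher and 1 lower over all days, 3 higher and 1 lower at day 0, and 3 higher and 4 lower at day 8. These are 4.55%, 9.09% and 15.9% of the list, against 0.984%, 5.43% and 9.87% of all genes tested. Ppfia4, a HIF-induced gene of the liprin family, was at 25.3 and 32.6 TPM in KO against 11.98 TPM in WT at day 0. Ppfia4 at day 4 had 32.5 and 29.8 TPM in KO against 9.54 TPM in WT, and at day 8 24.6 and 30.7 TPM in KO against 12.1 TPM in WT (over all days log2 fold change 1.43, adjusted p = 0.0212). Igfbp3, which binds insulin-like growth factors, was lower, at 8.15 and 6.41 TPM in KO against 45.3 TPM in WT at day 0. Igfbp3 at day 4 had 104 and 105 TPM in KO against 368 TPM in WT, and at day 8 32.5 and 27.1 TPM in KO against 45.7 TPM in WT (over all days -1.77, adjusted p = 0.04996). At day 8 Angptl4, an inhibitor of lipoprotein lipase, was higher (2.07, adjusted p = 0.0292), and Vhl, the ubiquitin ligase subunit that recognises hydroxylated HIF, was lower (-1.11, adjusted p = 0.029). Vhl was at 15.5 and 14.2 TPM in KO against 34.2 TPM in WT at day 8.

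Of 13 glycogen genes tested, Pygl, the liver glycogen phosphorylase, was higher over all days, at 6.61 and 9.57 TPM in KO against 2.65 TPM in WT at day 0. Pygl at day 4 had 17.6 and 10.1 TPM in KO against 5.52 TPM in WT, and at day 8 6.17 and 8.33 TPM in KO against 2.58 TPM in WT (1.56, adjusted p = 0.04996). Pgm1, which links glycogen to glycolysis, was higher at day 0 (1.68, adjusted p = 0.017), at 130.4 and 142 TPM in KO against 42.7 TPM in WT. Gyg, which primes glycogen, and Gsk3b, a kinase that inhibits glycogen synthase, were lower at day 8 (-2.12 and -1.23, adjusted p = 0.0232 and 0.021). The share of the glycogen list that passed was 7.69% over all days, 7.69% at day 0 and 15.4% at day 8, against 0.984%, 5.43% and 9.87% of all genes tested. Of 37 further genes of glycolysis and pyruvate use, none was called over all days or at day 0 by edgeR (8 with an unadjusted p under 0.05 in each, beside 19.7% and 24.4% of all genes). At day 8 Ldhd and Mpc1, the mitochondrial pyruvate carrier subunit, were higher (3.15 and 1.53, adjusted p = 0.0492 and 0.04), 5.41% of the list against 9.87% of all genes tested. Of 8 pentose phosphate genes 1 passed, Taldo1 at day 8 (0.89, adjusted p = 0.0415), a share of 12.5% near the 9.87% of all genes tested. The median log2 fold change over all days was 0.13 for the HIF list, 0.16 for the glycogen list, 0.21 for the further glycolysis list and 0.10 for the pentose phosphate list, below the 0.54 of the 28 glycolysis genes and beside -0.02 for all genes tested.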

How the data were processed

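PolyA+ RNA-seq was analysed from 9 libraries, the 2 KO lines and WT at each of 3 days. The authors deposited a table of counts and a table of TPM (transcripts scaled by length and by library total) for each library. Per the submitters' processing notes HISAT2 2.0.5, StringTie 1.3.3b and build mm10 were used; which step each was used for, the gene models and whether counting used strand are not given in the sources used here. Rows without a gene name (259 per library) were left out.

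Counts were tested with edgeR 4.0.16 (TMM scaling, quasi-likelihood test) in R 4.3.3 on the 24794 of 49326 genes that reached a CPM of 0.0791 in 2 or more libraries, a level equal to 10 counts at median depth. P-values were adjusted by Benjamini-Hochberg over all of these genes. The comparison over all days had genotype and day as terms; single days, KO courses and differences between days used a group-mean model. The lone WT library of a day was assumed to vary like the KO libraries. The fits were also run on simulated counts with independent libraries, no line effect and less spread than these data. That run cannot show how reliable the calls are here. DESeq2 1.42.0, limma 3.58.1, other scalings, no filter, log2 of TPM plus 1 or plus 0.1, a replicate block and left-out libraries were alternatives. Same-numbered KO libraries come from the same line, so the block pairs them; deviations of the lines correlated at r = 0.194, 0.136 and 0.433 between days over 12044 genes. Pseudogenes were matched with minimap2 2.31. Levels are TPM, not scaled by TMM.

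Members and gene lists were chosen with earlier results of these data known. All 48 members could be named. Values in every library are given for those past a test between genotypes and for chosen families, and from each other list at most 3 genes per direction and comparison.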

Additional observations from a re-analysis of the deposited data

Results flagged for a closer look

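For 3 members the difference between KO and WT at day 8 was not the same as at day 0, by a test of that difference (edgeR, adjusted over all genes tested). For Pdk1 it was 1.68 higher on the log2 scale: the gene was at 145 and 112 TPM in KO against 157.7 TPM in WT at day 0, and at 118 and 86.3 TPM in KO against 35.3 TPM in WT at day 8. For Vegfa the difference was -2.49, with 107 and 123 TPM in KO against 45.0 TPM in WT at day 0, and 57.7 and 86.9 TPM in KO against 163.7 TPM in WT at day 8. For Ndrg1 it was -1.77, with 53.0 and 63.7 TPM in KO against 20.5 TPM in WT at day 0, and 21.5 and 23.6 TPM in KO against 28.03 TPM in WT at day 8. The KO lines were on opposite sides of WT at the 2 days for each of these genes.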

How the results depend on the processing

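Of 633 repeats of the 37 calls of single members under other settings, 426 kept the call, 207 lost it and 0 changed sign. Ndufa4l2 at day 0 and Gbe1 in KO at day 4 against day 0 passed in every repeat. For Ndufa4l2 no repeat left out the WT library of day 0. With DESeq2 the members called were 12 over all days (6 by edgeR), 16 at day 0 (5), 16 at day 4 (0), 13 in KO at day 4 against day 0 (6), 29 in KO at day 8 against day 4 (8), 11 for the difference of day 8 and day 0 (3) and 7 between H8 and G6 (0). DESeq2 also called more of all 24794 genes tested. In KO at day 4 against day 0 it called 5989 (3650 by edgeR), and for the difference of day 8 and day 0 3868 (1166). With the replicate block they were 14 at day 0, 14 and 16 for the KO courses to day 4 and day 8, and 6 for the difference; the block ended the calls of Aldoc over all days and of Pfkm in the KO course and no other. Over all days the count was 3 on log2(TPM + 1), 0 with either KO line alone, 0 without the day 0 libraries and 18 as the mean of the per-day contrasts. For KO at day 8 against day 4 it was 18 with limma-voom and 4 on log2(TPM + 0.1). Leaving out 1 library at a time gave 0 to 4 members over all days, 1 to 7 at day 0, 0 to 0 at day 4, 0 to 11 at day 8, 1 to 13 and 0 to 16 for the KO courses, 0 to 7 for the difference and 0 to 4 between lines. Where a KO library of day 4 or day 8 was left out, calls over all genes also fell in every comparison of genotypes or days. The causes were not tested. With 1 WT library per day, small differences are not detectable.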

Other observations

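Within the KO lines, 10 of 44 further HIF pathway and target genes rose and 3 fell at day 4 against day 0, where 14.7% of all genes tested passed (edgeR, adjusted over all genes tested). Igfbp3 rose by a log2 fold change of 3.85 (adjusted p = 0.00123), Bhlhe41, a transcriptional repressor of the clock, by 3.83 (adjusted p = 0.0109) and Flt1, a VEGF receptor, by 3.58 (adjusted p = 0.0109). Lox, which crosslinks collagen, fell (log2 fold change -5.66, adjusted p = 0.00502). All 4 genes moved in the same direction in WT, which has 1 library per day and no test. From day 0 to day 4 Lox went from 97.85 to 0.204 TPM in WT and Igfbp3 from 45.3 to 368 TPM. Flt1 went from 8.25 to 31.9 TPM in WT and Bhlhe41 from 1.4 to 2.31 TPM. In KO at day 8 against day 4 Igfbp3 fell (-1.80, adjusted p = 0.0338), and so did Pgm1 of the glycogen list (-1.75, adjusted p = 0.0361). Of the 44 HIF list genes, 37 had a negative fold change at that step, with a median of -0.52 against 0.0063 over all genes tested.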
